A study of Homo sapiens with 6 samples.

Results

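The neutrophil-attracting CXC chemokines are small secreted proteins that carry an ELR (glutamate, leucine, arginine) motif before their first cysteines. Listed by name, 6 genes form the group: CXCL1, CXCL2, CXCL3, CXCL5, CXCL6 and CXCL8. Of these, 4 (CXCL1, CXCL3, CXCL5 and CXCL8) were found by gene symbol among the 16390 genes of the count tables, and CXCL2 and CXCL6 were not analysed here. The group was selected on measured values of the same comparison that is described below, in which CXCL1 and CXCL8 were known to differ between RC48 and Control. The differences of the chemokine genes between the groups are therefore given as a description, without a test.

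The study asked how bladder cancer cells respond to RC48 (disitamab vedotin), an antibody-drug conjugate that is directed at the receptor ERBB2 and delivers monomethyl auristatin E, a poison of microtubules. RNA was sequenced from SW780, an established human bladder cancer cell line used as a luminal type. The 3 RC48 libraries came from cells exposed to RC48 at 25 µg/ml, and the 3 Control libraries from the corresponding control cells of the same line. The exposure time and the handling of the Control cells are not given in the sources used here. Nothing in the labels says that the 3 libraries of a group came from separate cultures, so that the spread between them, and the p-values that rest on it, may be technical.

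Chemokines of this group bind CXCR2 on neutrophils, and CXCL6 and CXCL8 also bind CXCR1. They draw these cells along a gradient from blood into tissue and release their granules. Epithelial cells, the urothelium among them, make little of these chemokines at rest and much more after interleukin 1, tumour necrosis factor or bacterial products, through NF-κB and AP-1 sites before the genes. Their mRNAs hold AU-rich elements, where decay proteins such as ZFP36 bind and shorten the life of the message.

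The sequences before the start sites are shown since the 6 genes share a motif there. RefSeq positions (GRCh38.p14) place the 250 bases before the start at chr4:73869143-73869392 (plus strand) for CXCL1, chr4:74038690-74038939 (minus strand) for CXCL3, chr4:73998678-73998927 (minus strand) for CXCL5 and chr4:73740319-73740568 (plus strand) for CXCL8. Each is printed 5′ to 3′ on the strand of its gene. Capitals mark the letters GGAATTTCC, with 1 flanking base on each side where these complete an NF-κB (κB) consensus, and the letters TGANTCA, an AP-1 type motif.
CXCL1: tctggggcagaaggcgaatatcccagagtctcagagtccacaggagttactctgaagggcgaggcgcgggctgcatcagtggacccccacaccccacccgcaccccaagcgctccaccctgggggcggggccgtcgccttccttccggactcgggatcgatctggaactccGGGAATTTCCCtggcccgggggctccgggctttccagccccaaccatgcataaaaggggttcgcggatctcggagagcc
CXCL3: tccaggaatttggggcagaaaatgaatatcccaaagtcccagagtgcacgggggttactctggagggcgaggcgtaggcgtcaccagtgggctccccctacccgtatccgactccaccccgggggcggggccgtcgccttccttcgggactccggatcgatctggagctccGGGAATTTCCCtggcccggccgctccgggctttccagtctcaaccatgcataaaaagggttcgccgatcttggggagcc
CXCL5: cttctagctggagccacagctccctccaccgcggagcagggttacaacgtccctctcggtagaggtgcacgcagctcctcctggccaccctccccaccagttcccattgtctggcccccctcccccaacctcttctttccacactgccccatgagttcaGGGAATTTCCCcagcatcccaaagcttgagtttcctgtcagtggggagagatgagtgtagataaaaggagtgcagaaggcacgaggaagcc
CXCL8: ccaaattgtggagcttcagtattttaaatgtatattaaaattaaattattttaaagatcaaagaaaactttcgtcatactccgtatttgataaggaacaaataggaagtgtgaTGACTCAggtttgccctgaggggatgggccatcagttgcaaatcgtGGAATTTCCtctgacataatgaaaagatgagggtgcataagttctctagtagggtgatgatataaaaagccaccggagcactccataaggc
The motif GGAATTTCC was chosen after these sequences were seen, and both strands were searched for it from 250 bases before to 50 bases after the start. It stood in the promoters of all 6 genes, CXCL2 and CXCL6 included, with its first base 77 to 91 bases before the start. Of 27305 RefSeq promoters of the same length, 129 (0.472%) held it, as did 43 of 10695 promoters of genes tested here (0.402%). The κB consensus, which overlaps GGAATTTCC in these promoters, was matched in the promoters of CXCL1, CXCL2, CXCL3, CXCL5 and CXCL6 and in 5.72% of all promoters. The CXCL8 promoter did not match the whole consensus and held only GGAATTTCC. It was also the one promoter of the 6 with TGANTCA (read as TGACTCA, 137 bases before the start, matched on both strands) and with TATAAA (31 bases before the start). TGANTCA stood in 7.76% and TATAAA in 11.95% of all promoters. These letters are a description of the sequence and say nothing about binding. The promoter of CXCL5, whose counts are given below, held the same κB letters as those of CXCL1 and CXCL3.

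The libraries held 16453233 to 17988030 estimated counts. A total of 13055 genes passed the filter on low counts and were tested. Of these, 288 (2.21%) had an adjusted p under 0.05 in edgeR's quasi-likelihood test, 258 of them (1.98% of the genes tested) higher and 30 lower in RC48, and the median log2 fold change of all genes tested was 0.02. With each library corrected for the GC content of transcripts, 934 genes were called, 592 of them higher. Irrespective of any test, 2269 genes (17.4%) had every RC48 library above every Control library. The RC48 libraries differed among themselves more than the Control libraries. Over 12885 genes, chi-square divided by its degrees of freedom, with 1 as the value for sampling noise alone, was 126 for RC48 replicates 1 and 2, 58.3 for replicates 1 and 3 and 20.9 for replicates 2 and 3, against 1.43 to 10.9 for the pairs of Control libraries. RC48 replicate 1 stood apart most, and values without it are given where they bear on a chemokine. The luminal markers GATA3, FOXA1, KRT20, ERBB2, PPARG and UPK2 were all detected, with a summed level of 761 to 776 CPM (counts scaled to library size by TMM) in Control and 696 to 867 CPM in RC48. KRT20, a keratin of umbrella cells, was the 1 luminal marker called (log2 fold change -1.55, edgeR adjusted p = 0.0489). It had 102 counts in Control and 35 in RC48. The other luminal markers were not called, with log2 fold changes of 0.10 for GATA3, -0.44 for FOXA1, 0.16 for ERBB2, 0.003 for PPARG and 0.49 for UPK2. The 4 basal markers summed to 333 to 352 CPM in Control and 310 to 343 CPM in RC48. Nearly all of this sum was CD44, at 329.6 ± 8.82 CPM in Control and 311 ± 22.5 CPM in RC48. In Control and RC48, KRT5 stood at 6.09 and 8.34 CPM, KRT6A at 3.90 and 3.45 CPM and KRT14 at 3.22 and 5.18 CPM. None of the 4 was called, but every RC48 library was above every Control library for KRT14. Of 12 leukocyte markers, 8 were listed, and their summed level was 17.9 to 18.5 CPM in Control and 22.6 to 42.03 CPM in RC48. PTPRC, the pan-leukocyte CD45, had 0 counts in Control and 2 in RC48, the macrophage gene AIF1 had 0 and 1, and the granulocyte receptor gene CSF3R had 7 and 6. The leukocyte integrin ITGAM was called, with 5 and 188 counts (log2 fold change 5.12, edgeR adjusted p = 0.0074). The monocyte gene CD14 (18 and 49 counts, 1.42, adjusted p = 0.162), the T cell gene CD3E (16 and 51 counts, 1.64, adjusted p = 0.113) and the lysosomal gene CD68 (16.8 and 24.2 CPM, 0.53, adjusted p = 0.275) were not called, but every RC48 library was above every Control library for each of these and for ITGAM. ITGAM (0, 5 and 0 counts in Control), CD14 and CD3E passed the filter on low counts only through their RC48 libraries. Their direction among the genes tested is therefore partly fixed by the filter. LYZ stood at 0.505 and 0.582 CPM (0.20, adjusted p = 0.747). Fibroblast markers summed to 444 to 475 and 445 to 558.5 CPM and endothelial markers to 27.9 to 29.7 and 18.5 to 24.96 CPM. Most of the fibroblast sum was COL3A1 and LUM, which moved in opposite directions and were not called. COL3A1 stood at 280.5 ± 18.2 CPM in Control and 412 ± 47.6 CPM in RC48, and LUM at 168 ± 3.10 and 92.2 ± 23.2 CPM.

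CXCL8 and CXCL1 were by far the most abundant of the 4 chemokines in RC48, CXCL3 was present at a low level, and CXCL5 stayed at a few counts per library in both groups. CXCL8, CXCL1 and CXCL3 passed the filter on low counts, and CXCL5 did not. CXCL3, with 1, 3 and 1 counts in Control, passed only through its RC48 libraries. CXCL1, with 14, 16 and 9 counts in Control, would not have passed through its Control libraries alone. Which chemokines passed is therefore partly fixed by their level in RC48. In bulk RNA, more cells making a chemokine and more RNA per cell cannot be told apart. All 24 counts of the 4 genes in the 6 libraries were whole numbers.

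CXCL1 (NCBI gene 2919) encodes a ligand of CXCR2, first described as a melanoma growth factor. The study also looked at this gene in these libraries. CXCL1 had 14, 16 and 9 counts in Control replicates 1, 2 and 3 and 1305, 1440 and 1322 counts in RC48 replicates 1, 2 and 3. No Control library came near an RC48 library, and the 3 RC48 libraries lay close together, with a coefficient of variation of 5.61%. The level was 0.755 ± 0.204 CPM in Control and 78.4 ± 4.40 CPM in RC48 (SD, n = 3). The ratio of the summed counts, scaled by library size, was 103 (95% exact interval 75.6 to 146, counting error only), and the fitted log2 fold change was 6.68 (SE 0.21).

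CXCL8 (NCBI gene 3576), also known as interleukin 8, binds both CXCR1 and CXCR2 and is the best known neutrophil attractant of the human epithelium. Its counts were 22, 31 and 28 in the Control libraries and 1142, 2826 and 1658 in the RC48 libraries. The groups did not overlap, but the RC48 libraries were far apart, the highest CPM being 2.33 times the lowest. The level was 1.57 ± 0.270 CPM in Control and 108 ± 47.9 CPM in RC48, a coefficient of variation of 44.5% in RC48. The ratio of the summed counts was 68.9 (95% exact interval 55.4 to 86.9), and the fitted log2 fold change was 6.09 (SE 0.39). Without RC48 replicate 1 it was 6.32, and without RC48 replicate 2, the highest library, it was 5.68.

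CXCL3 (NCBI gene 2921), a close relative of CXCL1 that also acts through CXCR2, had 1, 3 and 1 counts in Control and 54, 66 and 57 counts in RC48. The lowest RC48 library was far above the highest Control library. The levels were 0.0968 ± 0.0667 CPM and 3.41 ± 0.318 CPM. With only 5 Control counts in all, the ratio of the summed counts was known less closely than for the other genes, at 35.1 (95% exact interval 14.8 to 109.5). The fitted log2 fold change of 5.03 (SE 0.36) was 5.70 without Control replicate 2, which held 3 of the 5 counts. That SE was derived from the F statistic of the fit and understates the counting error, which the exact interval shows.

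CXCL5 (NCBI gene 6374), a CXCR2 ligand that epithelial cells release after interleukin 1 or tumour necrosis factor, had 8, 2 and 5 counts in Control and 0, 5 and 5 counts in RC48. The groups overlapped. The count of 0 in RC48 replicate 1 allows a level of up to 0.182 CPM at 3 counts. The levels were 0.291 ± 0.173 CPM in Control and 0.188 ± 0.163 CPM in RC48, and the ratio of the summed counts, 15 in Control and 10 in RC48, was 0.662 (95% exact interval 0.266 to 1.57). The log2 ratio of the mean CPM was -0.63, and without RC48 replicate 1, the library with 0 counts, it was -0.05. The upper end of this interval lies below the lower ends of the intervals of CXCL1, CXCL8 and CXCL3. A difference of the size seen for those genes would have been detectable at this depth.

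**Figure D1:**
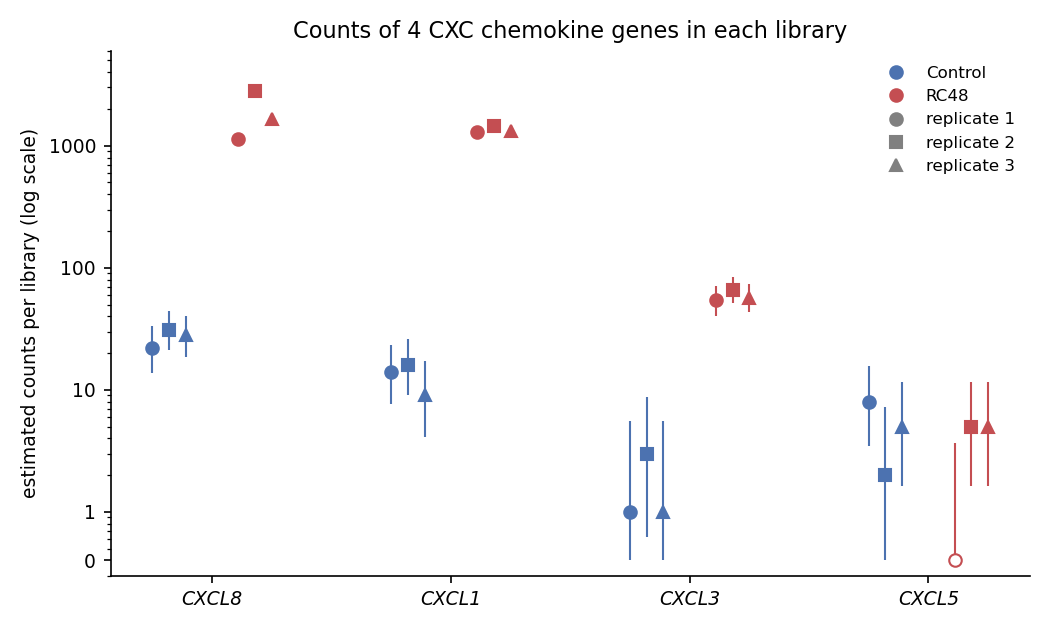
Estimated counts (log scale, with 0 drawn at its foot) of CXCL8, CXCL1, CXCL3 and CXCL5 in each of the 6 libraries, Control in blue and RC48 in red, with 95% exact Poisson intervals as bars and the marker shape giving the replicate number. CXCL8, CXCL1 and CXCL3 were higher in all 3 RC48 libraries than in any Control library, and CXCL5 (open circle for 0 counts) lay between 0 and 8 counts in both groups.

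For CXCL1, CXCL3 and CXCL8, 3 of the 4 listed chemokines, every RC48 library was above every Control library, as it was for 17.4% of all genes tested. Since the group was chosen by such differences, nothing is read from this count. CXCL3 was the chemokine nearest to the filter on low counts from above, with 182 counts over the 6 libraries, and CXCL5 the nearest from below, with 25.

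Levels of different genes can be set side by side per length, as TPM (abundance scaled for transcript length and library size). TPM of RC48 replicate 2 was computed from its counts. In Control the TPM of CXCL1 was 1.61, 1.83 and 1.16, that of CXCL8 was 1.63, 2.30 and 2.32, that of CXCL5 was 0.37, 0.09 and 0.26, and that of CXCL3 was 0.13, 0.39 and 0.15. CXCL8 and CXCL1 were nearly equal in Control replicate 1, and CXCL3 and CXCL5 changed places between the libraries. In RC48 replicates 1, 2 and 3, TPM was 132, 162 and 140 for CXCL1, 147, 216 and 115 for CXCL8, 6.12, 8.32 and 6.81 for CXCL3 and 0, 0.239 and 0.22 for CXCL5. The order of CXCL1 and CXCL8 turned between RC48 libraries, so that these 2 neighbours did not differ beyond their spread, while CXCL3 stood below both and above CXCL5 in every RC48 library. TPM of CXCL8 in RC48 replicate 1 rests on a short implied length, as given below. By CPM the order turned as well, with CXCL8 below CXCL1 in RC48 replicate 1 and above it in replicates 2 and 3.

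The summed TPM of the 4 chemokines was 3.74, 4.61 and 3.89 in Control and 286, 386 and 261 in RC48. CXCL8 made up 51.0% ± 8.09 of the sum in Control and 50.4% ± 6.13 in RC48, and CXCL1 37.5% ± 6.88 and 47.2% ± 5.87 (SD, n = 3). By TPM the shares of CXCL8 overlapped between the groups, and so did those of CXCL1. The RC48 share of CXCL8 by TPM is raised by replicate 1, where its implied length was 0.255 against 0.460 to 0.466 in the other libraries with deposited TPM. By CPM, CXCL8 made up 57.9% ± 8.25 in Control and 55.1% ± 9.76 in RC48, and CXCL1 27.6% ± 5.78 and 42.95% ± 9.50. CXCL5 took 6.18% ± 3.995 of the sum in Control and 0.0487% ± 0.0436 in RC48, and CXCL3 5.26% ± 2.77 and 2.30% ± 0.264. The shares are fixed by the same counts as the differences above and carry no test.

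Counts of pairs of chemokines can be set against each other within a library. Of the counts of CXCL1 and CXCL3 together, CXCL3 had 3.97%, 4.38% and 4.13% in RC48 replicates 1, 2 and 3, and 4.17% over the 3 libraries (177 of 4244, 95% Clopper-Pearson interval 3.59% to 4.82%). In Control it had 5 of 44 counts, or 11.4% (interval 3.79% to 24.6%). The intervals overlap, which does not by itself place the difference within counting error, and 5 Control counts are too few to settle it. CXCL8 had 46.7%, 66.2% and 55.6% of the counts of CXCL8 and CXCL1 in the RC48 libraries and 61.1%, 66.0% and 75.7% in Control, and the groups overlapped. All these intervals cover counting error only and not the spread between libraries.

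CXCL1, CXCL2 and CXCL3 arose by duplication and share sequence, so that reads of one could be counted for another. The transcripts of GENCODE release v29 were compared in windows of 50 bases, since the read length is not given in the sources used here. CXCL1 shared 6 of its 1048 windows (0.573%) with CXCL3 and 60 (5.73%) with CXCL2. CXCL3 shared 54 of its 1026 windows (5.26%) with CXCL2. CXCL5 and CXCL8 shared 0 windows with any other member. How reads of CXCL2 were counted was not tested, and the counts of CXCL1 and CXCL3 are uncertain for this reason. Only exact matches between the longest protein-coding transcripts were counted, so that these shares do not bound the reads that could be miscounted.

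The spread of CXCL8 among the RC48 libraries had the same order as that of other genes of low GC content. The median GC content of the protein-coding CXCL8 transcripts is 36.9%, and only 1.86% of the genes tested had less. It is 33.4% for the transcript of 1705 bases and 40.3% for that of 700 bases, and the decile below rests on the median. In the decile of genes with the lowest GC content (1299 genes, CXCL8 among them), the median log2 ratio to the Control mean was -1.003 in RC48 replicate 1, 0.02 in replicate 2 and -0.39 in replicate 3. The log2 ratios of CXCL8 itself were 5.45, 6.67 and 5.86, in the same order of libraries. Relative to its GC decile, CXCL8 stood at 6.46, 6.65 and 6.26, so that its range over the 3 libraries was 0.39 in place of 1.22. With the GC correction the fitted log2 fold change of CXCL8 was 6.50. CXCL1 (GC content 45.6%, in decile 4) had log2 ratios of 6.70, 6.75 and 6.59, and CXCL3 (44.7%, in decile 3) had 4.84, 5.04 and 4.79. Relative to their deciles, CXCL1 stood at 6.98, 6.72 and 6.67 and CXCL3 at 5.35, 5.02 and 4.98, so that for these genes the range was wider than before, 0.305 in place of 0.16 for CXCL1 and 0.37 in place of 0.25 for CXCL3. Whether the low GC content of CXCL8 accounts for its spread was not tested.

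**Figure D2:**
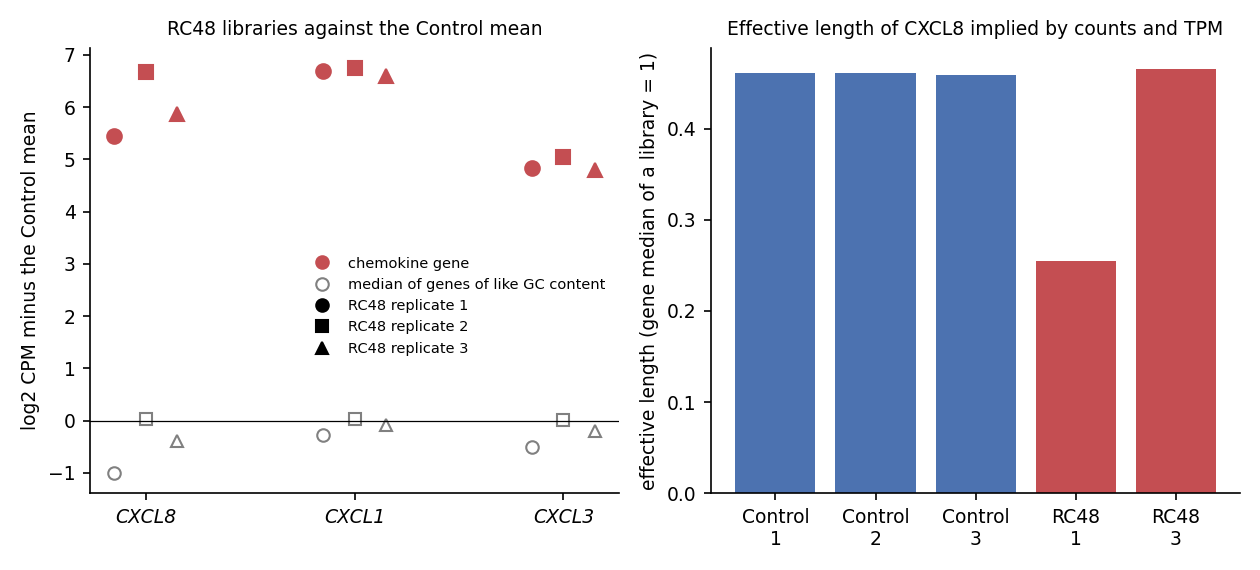
Left, log2 CPM of CXCL8, CXCL1 and CXCL3 in each RC48 library minus the mean of the Control libraries (filled), with the median of the genes in the same decile of GC content (open). Right, effective length of CXCL8 implied by count and TPM in the 5 libraries with deposited TPM, relative to the median gene. CXCL8 spans 5.45 to 6.67 where CXCL1 spans 6.59 to 6.75, and its implied length is 0.255 in RC48 replicate 1 and 0.460 to 0.466 elsewhere.

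The ratio of count to TPM gives the length that the estimation assigned to a gene in a library, and for CXCL8 this length was not the same in all libraries. Relative to the median gene of a library, it was 0.461, 0.461 and 0.460 in the Control libraries and 0.466 in RC48 replicate 3, but 0.255 in RC48 replicate 1. This was 0.553 of the median of the others (log2 -0.86). It was the 13th lowest of 11533 genes in this measure, whose absolute value was 0.02 on the log2 scale for the median gene of that library. GENCODE lists protein-coding CXCL8 transcripts of 1705 and 700 bases. Deposited TPM of CXCL8 in RC48 replicate 1 is therefore high relative to its count. By counts CXCL8 (1142) was below CXCL1 (1305) in that library, and by TPM it was above it (147 against 132). For RC48 replicate 2, TPM of CXCL8 was 216 with the median implied length, and 214 to 391 over the implied lengths of the 5 libraries.

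The transcripts of the chemokines were rich in ATTTA, the core of AU-rich elements, which was counted in the longest protein-coding GENCODE transcript of each gene. CXCL8 held 10 copies in 1705 bases, CXCL3 7 in 1075, CXCL5 11 in 2538 and CXCL1 5 in 1097. These are 5.87, 6.51, 4.33 and 4.56 copies per kb, against a median of 1.03 over 12983 genes tested. Between 98.8% and 99.9% of these genes had fewer per kb. CXCL5 did not stand apart from the other chemokines in this measure.

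The 6 genes lie within 359 kb of chromosome 4, in RefSeq on GRCh38.p14. In order of position they are CXCL8 at 73740569 to 73743716, CXCL6 at 73836678 to 73838760 and CXCL1 at 73869393 to 73871308, all on the plus strand, then CXCL5 at 73995642 to 73998677, CXCL3 at 74036589 to 74038689 and CXCL2 at 74097040 to 74099195, all on the minus strand. Of 17 RefSeq genes in this span, the 4 chemokines were the ones listed in the count tables. CXCL5 lies between CXCL1, 124 kb away, and CXCL3, 37.9 kb away. Its ratio of summed counts was 0.662, against 103 and 35.1 for these neighbours. Of the 5 listed genes on each side of the cluster, 7 were tested and 0 were called by edgeR or by DESeq2. An unadjusted edgeR p under 0.05 was found for 2499 of all 13055 genes tested and for 2 of these 7. They were MTHFD2L, a mitochondrial folate enzyme, with 9.68 ± 0.227 CPM in Control and 5.43 ± 2.09 CPM in RC48 (log2 fold change -0.83, edgeR adjusted p = 0.198), and BTC, which encodes betacellulin (-0.67, adjusted p = 0.181). The log2 fold changes were -0.25 and -0.16 for the growth factor genes EREG and AREG, 0.05 for RASSF6, -0.25 for COX18 and -0.14 for ANKRD17.

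**Figure D3:**
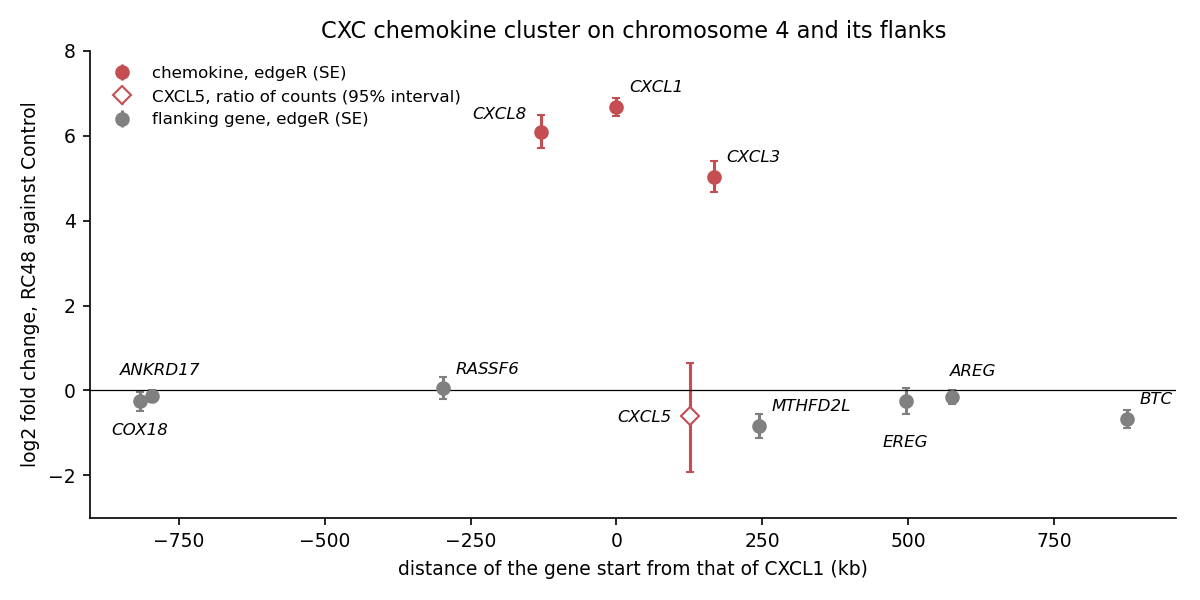
Log2 fold change of RC48 against Control by distance of the gene start from that of CXCL1, in kb on chromosome 4, for CXCL8, CXCL1 and CXCL3 (red, edgeR, bars SE), CXCL5 (open diamond, log2 ratio of summed counts, bars 95% exact interval) and the 7 flanking genes tested (grey, bars SE). CXCL8, CXCL1 and CXCL3 lie at 6.09, 6.68 and 5.03, and the flanking genes between -0.83 and 0.05.

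Genes around the chemokines were read from lists of their receptors, inducers, factors and decay proteins, none of which was used to choose the 6 chemokines. Of 61 genes in 7 lists, 51 were listed, 40 were tested, 14 were higher and 0 were lower in RC48. In the same test 2.21% of all genes were called. Of the 14, TNF, CSF2, CCL20, SAA1, SAA2 and CXCL10 had few Control counts and passed the filter only through their RC48 libraries. With at least 10 counts required in every library, 8 related genes were called. The lists were put together with earlier results of these data known, so that these counts describe the lists and support nothing further.

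Of the receptors of these chemokines, CXCR2 was tested, and CXCR1 and ACKR1 were not analysed here. CXCR2, through which all 6 ligands act, had 22, 29 and 15 counts in Control and 14, 15 and 21 counts in RC48. The groups overlapped (log2 fold change -0.41, SE 0.31, edgeR adjusted p = 0.413). Its level was 1.28 ± 0.399 CPM in Control and 0.959 ± 0.182 CPM in RC48.

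The cytokines that induce these chemokines in epithelium were higher in RC48 in all 3 genes tested, with a median log2 fold change of 2.11. TNF passed the filter on low counts only through its RC48 libraries, so that this count is partly fixed by the filter. IL1A, a cytokine released by damaged epithelium, rose from 9.03 ± 0.615 to 39.0 ± 10.02 CPM (log2 fold change 2.11, SE 0.21, edgeR adjusted p = 0.00225). IL1B, its secreted relative, rose from 14.8 ± 0.907 to 49.5 ± 3.30 CPM (1.74, SE 0.13, adjusted p = 6.4e-04). TNF had 1 count over the Control libraries and 53, 51 and 38 counts in the RC48 libraries, a ratio of 141 with a 95% exact interval of 24.9 to 5604 (edgeR adjusted p = 0.00129). The study also looked at IL1B and TNF in these libraries, and their direction here is not independent of that. IL17C, IL36A and IL36G had at most 7 counts in a group and were not tested. The receptor chains IL1R1, IL1RAP, TNFRSF1A, IL17RA, IL17RC and IL17RE were not called in edgeR or in DESeq2 (0 of 6, with 0 at an unadjusted p under 0.05, log2 fold changes -0.37 to 0.37, edgeR adjusted p = 0.27 to 0.977). In Control, TNFRSF1A, the main TNF receptor of epithelium, stood at 167 ± 5.44 CPM and IL1R1, the signalling receptor of IL1A and IL1B, at 0.874 ± 0.256 CPM.

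Of 10 transcription factors known to act at chemokine promoters, 1 was called. JUN, a subunit of AP-1, rose from 194 ± 6.80 to 304 ± 18.4 CPM (log2 fold change 0.65, SE 0.11, edgeR adjusted p = 0.0267), a call that was lost in 10 of 17 alternatives, the GC correction among them (adjusted p = 0.108; range 6.4e-05 to 0.24). NFKB1, which encodes the p50 subunit of NF-κB, stood at 81.2 ± 2.08 and 105 ± 3.27 CPM (0.37, adjusted p = 0.154) and RELA, its p65 partner, at 86.3 ± 5.23 and 96.7 ± 1.30 CPM (0.17, adjusted p = 0.371). CEBPB, CEBPD, FOSL1, JUNB, FOS, EGR1 and NFKBIZ were not called. The median of the list was 0.29. An unadjusted edgeR p under 0.05 was found for 3 of the 10 genes, and for 2499 of all 13055 genes tested.

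Of 9 genes whose proteins act on chemokine mRNA, 1 was called by edgeR and 3 by DESeq2. ZC3H12A encodes regnase-1, an endonuclease that cuts inflammatory mRNAs, and rose from 47.7 ± 2.01 to 218 ± 24.6 CPM (log2 fold change 2.19, SE 0.13, edgeR adjusted p = 3.4e-04). ZFP36, the AU-rich element binding protein tristetraprolin, stood at 133 ± 4.43 and 148 ± 10.7 CPM (0.15, adjusted p = 0.418). ZFP36L1 had a log2 fold change of 0.49 (adjusted p = 0.107) and ZFP36L2 of -0.45 (adjusted p = 0.242). TRAF3IP2, the adaptor through which interleukin 17 stabilizes these messages, had 0.44 (adjusted p = 0.127). HNRNPD, KHSRP, ELAVL1 and ARID5A were not called by edgeR. The median of the list was 0.15. Of its 9 genes, 5 had an unadjusted edgeR p under 0.05, as had 2499 of all 13055 genes tested.

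Other epithelial products that act on or accompany neutrophils were higher in RC48 in all 8 genes tested of 11 listed, with a median log2 fold change of 4.50. Of these, CSF2, CCL20, SAA1 and SAA2 had few Control counts and passed the filter only through their RC48 libraries. The count and the median are therefore partly fixed by the filter, and nothing is read from them. LCN2, the siderophore-binding lipocalin, rose from 1.36 ± 0.288 to 44.6 ± 3.996 CPM (5.03, SE 0.20, edgeR adjusted p = 6.1e-05). CSF2, the colony-stimulating factor GM-CSF, had 6 counts in Control and 162 in RC48, a ratio of 26.8 (95% exact interval 12.04 to 74.1, edgeR adjusted p = 0.00115). CCL20, a chemokine for lymphocytes and dendritic cells, had 5 and 189 counts, a ratio of 37.5 (15.8 to 117, adjusted p = 6.4e-04). Complement C3 (log2 fold change 4.33, adjusted p = 3.1e-04), the adhesion molecule ICAM1 (2.58, adjusted p = 6.4e-04) and the calprotectin subunit S100A9 (1.46, adjusted p = 0.00301) also rose. The acute-phase genes SAA1 (1 and 72.8 counts, adjusted p = 0.013) and SAA2 (2 and 37.9 counts, adjusted p = 0.0127) are close copies whose reads could be shared, and both lost the call when any 1 Control library was left out. CSF3, the main growth factor of neutrophils, had 2 counts in Control and 4 in RC48, and IL6 had 1 and 11. S100A8, the partner of S100A9, had 2 and 25 counts, and these 3 genes did not pass the filter.

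Of the other CXC chemokines, 8 were listed and 3 tested, and 1 was called by edgeR and 2 by DESeq2. CXCL10, a ligand of CXCR3 that draws T cells, had 2, 1 and 1 counts in Control and 28, 50 and 37 counts in RC48, a ratio of 28.5 (95% exact interval 10.8 to 106.5, edgeR adjusted p = 0.00167). CXCL10 is also among the genes that the study looked at in these libraries. CXCL11, which binds the same receptor, had 25 and 43 counts (log2 fold change 0.76, adjusted p = 0.309). CXCL16, a membrane-bound chemokine, stood at 56.4 ± 3.33 and 89.4 ± 11.7 CPM (0.67, adjusted p = 0.0571). The median of the list was 0.76. CXCL9, CXCL12, CXCL13 and CXCL14 had at most 2 counts in a group, and CXCL17 had 13 and 14.

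**Figure D4:**
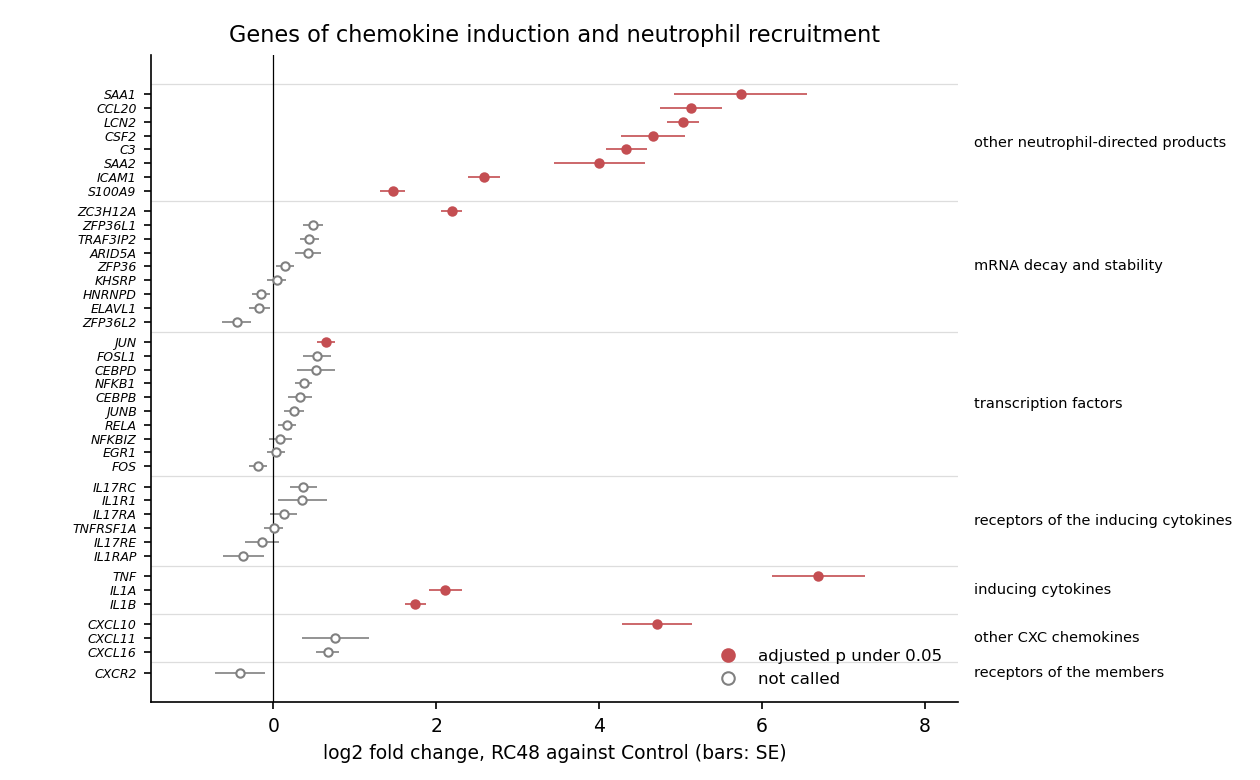
Log2 fold change of RC48 against Control with its SE for the 40 genes tested, grouped by role, with genes past an edgeR adjusted p of 0.05 filled. The 14 called genes lie to the right of 0, at 0.65 for JUN and at 1.46 or more for the others. TNF, SAA1 and SAA2 had at most 2 Control counts, so that their fitted values depend on the prior count.

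The patterns closest to those of the chemokines were found by the root mean square difference over the 6 libraries of log2 CPM relative to the Control mean, over all genes tested other than the chemokines of the group. For CXCL3 the nearest was CSF2 (0.24), followed by VNN1 (0.42) and SAA1 (0.46). For CXCL8 the nearest were TNF (0.66), IL32 (0.68) and CCL20 (0.86), and for CXCL1 they were IL32 (0.87), TNF (0.90) and BIVM-ERCC5 (1.13), a read-through gene with 0 Control counts that shares exons with both of its parents. Among the chemokines themselves, left out of that search, the difference was 0.652 between CXCL1 and CXCL8, close to the 0.655 between CXCL8 and TNF. It was 0.895 between CXCL3 and CXCL8 and 1.30 between CXCL1 and CXCL3.  The measure is driven by the size of the difference between the groups. TNF, VNN1 and SAA1 each had 1 count over the Control libraries, so that their differences also depend on the prior count of 0.5.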

How the data were processed

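Total RNA of SW780 cells, 3 Control and 3 RC48 libraries, was sequenced by the authors, who used SOAPnuke for read filtering, Bowtie2 for mapping and RSEM for counting. Versions are not given in the sources used here, and the submitters' processing notes name hg38. The deposited estimated counts of each gene are those of RSEM and are not normalized. The TPM values deposited by the authors, normalized for gene length and library size, cover 5 libraries. The library totals are from 16453233 to 17988030 estimated counts.

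After rounding to whole numbers, genes were filtered (filterByExpr) and libraries scaled (TMM). RC48 was tested against Control without covariates, with edgeR's quasi-likelihood test and Benjamini-Hochberg adjustment over 13055 genes, and genes under an adjusted p of 0.05 were called (edgeR 4.0.16 and limma 3.58.1 in R 4.3.3). The study's own test was limma on log2(TPM+1), used here as an alternative. The procedure was tested on simulated data. Ratios of summed counts have exact conditional binomial intervals and single counts exact Poisson intervals (95%), for counting error only. The SE of an edgeR log2 fold change is its absolute value divided by the square root of the F statistic of the quasi-likelihood test. For genes with few Control counts it can be smaller than the counting error. TPM of RC48 replicate 2 was computed from its counts and the lengths that counts and TPM of the other libraries imply, for genes that reached 20 counts and 1 TPM. The same calculation for RC48 replicate 3 differed from its deposited TPM by a median of 0.0367 (absolute log2) over 11982 genes. GC content and ATTTA counts came from the transcripts of GENCODE release v29, and promoters and positions from RefSeq (GRCh38.p14). Python 3.11.15, numpy 2.4.6, pandas 2.3.3, scipy 1.17.1 and matplotlib 3.10.9 were used.

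The members and the gene lists were chosen with earlier results of these data known. Named are the 6 chemokines, the genes of the lists (receptors, other CXC chemokines, inducing cytokines and their receptors, transcription factors, mRNA decay, other neutrophil-directed products, cell type markers), the listed genes of the chromosome 4 cluster with 5 on each side, and for each chemokine that passed the filter the 3 genes of nearest pattern (log2 CPM with a prior count of 0.5). The alternatives were DESeq2 1.42.0, scaling by RLE or by library size only, all genes or those with 10 or more counts in each library, limma on TPM with a pseudocount of 1 (5 libraries, or all 6) or 0.1, a term for the replicate number, a loess correction for GC content (span 0.3) with and without that term, CPM or TPM, and each library left out in turn.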

Additional observations from a re-analysis of the deposited data

How the results depend on the processing

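The 288 genes called became 676 with DESeq2, 2894 with limma on log2(TPM+1) over the 5 libraries other than RC48 replicate 2 (221 over all 6, and 223 with a pseudocount of 0.1), 934 with the GC correction and 690 with the GC correction and a replicate block together. Leaving out a library gave 68 to 3726 calls: 71, 78 and 68 without Control replicates 1, 2 and 3, and 897, 3726 and 93 without RC48 replicates 1, 2 and 3. The balance of higher and lower calls moved too. Of the genes called, 258 of 288 were higher in the reported test, 1862 of 3726 without RC48 replicate 2, 821 of 2894 in limma over 5 libraries, 606 of 897 without RC48 replicate 1 and 488 of 676 with DESeq2. Of the related genes, 8 in place of 14 were called with at least 10 counts in every library, which removes genes with few Control counts, and 11 to 21 when a library was left out. The log2 fold changes from limma on log2(TPM+1), whose pseudocount shrinks low genes, were 5.77 and 5.85 for CXCL1 (5 and 6 libraries), 2.61 and 2.72 for CXCL3, and 5.42 for CXCL8 over 5 libraries. The log2 fold changes from edgeR ranged from 6.48 to 6.85 for CXCL1, from 4.78 to 5.70 for CXCL3 and from 5.68 to 6.32 for CXCL8 when a library was left out, and the log2 ratio of CXCL5 (-0.63) from -1.06 (without RC48 replicate 2) to -0.05 (without RC48 replicate 1). By CPM the shares in RC48 were 42.95% for CXCL1, 55.1% for CXCL8, 1.85% for CXCL3 and 0.0932% for CXCL5. With at least 10 counts in every library, CXCL1 and CXCL3 gave no value. Same-numbered libraries did not deviate together (correlations -0.01, -0.12 and 0.02), and other pairs stood at -0.10 to 0.13. With 3 libraries per group these values cannot exclude a pairing, and the labels do not state one. With the replicate block 331 genes and 13 related genes were called, JUN being lost, and CXCL8 stood at 6.03. Of the 14 related genes called, 11 kept the call in all their alternatives, JUN lost it in 10 of 17, SAA1 in 3 of 16 and SAA2 in 4 of 16. No chemokine and no related gene named as called changed sign in these alternatives. Counts of CXCL3 and CXCL5 in Control are too few to fix a ratio closely.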
